A study of Homo sapiens with 24 samples.

Results

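The genes described here are 42 genes of the G1/S transition and of DNA replication, picked by name from the 28278 genes of a count table. All 42 passed the filter on low counts and were tested among 15642 genes. RNA was sequenced in 24 libraries of TYUC-1, a human cell line from a neuroendocrine carcinoma of the esophagus that grows in suspension. A TAp63 line (genotype i-TAp63) and a ΔNp63 line (i-DNp63) carry doxycycline-inducible forms of p63, a transcription factor of squamous epithelia. ΔNp63 lacks the N-terminal transactivation domain of TAp63. Cells of each line received doxycycline at 1 µg/ml for 0, 1, 3 or 6 days and DMSO for the other 6, 5, 3 or 0 days of the course, with 3 libraries in each of the 8 groups. The treatment label of each sample also names EPZ-6438, a drug against the polycomb enzyme EZH2, with a number of days equal to that of doxycycline, while titles and induction labels name p63 alone. Whether the inhibitor was given is not settled by the labels, so induction and inhibitor cannot be told apart here. The labels do not say whether each line is a single clone, and doxycycline-treated cells with no p63 construct were not analysed here. The replicates are described as biological, with no word on separate cultures, and the spread behind each p-value is that between libraries, which may be technical.

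As background, a cell commits to DNA replication when cyclin D and cyclin E kinases phosphorylate RB and free the E2F factors, which switch on a common set of S phase genes. ORC, CDC6 and CDT1 load the MCM helicase on origins in G1, and CDC45 and the GINS complex then activate it so that polymerases, clamp and ligase can copy the DNA. Messenger RNAs of these genes are abundant in cycling cells and scarce in resting ones, and fewer cells in S phase and less RNA per cell cannot be told apart in bulk RNA.

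The promoters of these genes are known for E2F sites, and sequences of that type are shown for 4 genes called lower at ΔNp63 day 3 in the results that follow, CDT1 and MCM3 only when 1 library was left out. Each is the 250 bases upstream of the RefSeq start (GRCh38.p14), 5′ to 3′ on the gene's own strand, with E2F-type sequences in capitals. The windows lie at chr16:88803539-88803788 (plus strand) for CDT1, chr6:52284743-52284992 (minus) for MCM3, chr7:100101398-100101647 (minus) for MCM7 and chr19:48170345-48170594 (minus) for LIG1.
CDT1: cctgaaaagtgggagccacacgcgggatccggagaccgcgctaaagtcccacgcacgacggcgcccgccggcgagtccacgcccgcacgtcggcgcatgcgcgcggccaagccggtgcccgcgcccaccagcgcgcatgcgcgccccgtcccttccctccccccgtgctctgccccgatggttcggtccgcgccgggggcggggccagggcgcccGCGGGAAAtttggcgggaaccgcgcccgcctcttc
MCM3: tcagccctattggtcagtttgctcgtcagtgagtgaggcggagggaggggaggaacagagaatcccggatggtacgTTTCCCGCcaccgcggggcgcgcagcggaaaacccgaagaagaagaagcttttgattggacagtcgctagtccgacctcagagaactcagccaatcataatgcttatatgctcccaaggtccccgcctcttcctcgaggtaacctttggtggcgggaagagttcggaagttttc
MCM7: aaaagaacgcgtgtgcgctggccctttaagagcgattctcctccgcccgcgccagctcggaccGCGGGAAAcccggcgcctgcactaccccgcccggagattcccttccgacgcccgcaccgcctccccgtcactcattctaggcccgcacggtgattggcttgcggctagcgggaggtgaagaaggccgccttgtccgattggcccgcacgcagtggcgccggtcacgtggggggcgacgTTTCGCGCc
LIG1: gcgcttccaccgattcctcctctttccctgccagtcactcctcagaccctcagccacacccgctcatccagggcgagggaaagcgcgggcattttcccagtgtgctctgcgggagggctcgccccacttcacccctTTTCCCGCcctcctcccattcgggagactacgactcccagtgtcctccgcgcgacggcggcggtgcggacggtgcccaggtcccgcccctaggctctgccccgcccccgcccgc

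MCM7 held 2 such sequences in the stretch shown and each of the other genes held 1. RefSeq windows of 300 bases (250 before the start and 50 from it on) were at hand for 37 members, and those of MCM4, MCM5, GINS4, CCNE2 and CCND1 were not used here. TTTCGCGC, TTTGGCGC, TTTCCCGC and TTTGCCGC were searched on both strands and counted as E2F-type. At least 1 of them stood in the windows of 20 of the 37 members (54.1%), against 3.99% of 27305 genes and 6.31% of the 11815 tested genes with a window. The CCAAT box (CCAAT) was found for 59.5% of members and 39.7% of all genes. The cell cycle homology region TTTGAA, an element of G2/M genes, was found for 1 member (2.7%) and 18.2% of all genes. These matches describe letters in a window and not bound sites.

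Library totals lay between 1530847 and 22019974 counts, the second lowest being 6375963. The lowest total belonged to replicate 3 of ΔNp63 day 1, which also stood apart in content. It held 1727 CPM (counts scaled to the TMM-adjusted size of the library) of the fetal globin HBG2, where no other library exceeded 30.6, and 89.1 CPM of the leukocyte gene PTPRC, where no other exceeded 5.28. Its TP63 level was 69.2 CPM, where replicates 1 and 2 of ΔNp63 day 1 held 721 and 576. Of the 42 members 19 were higher and 7 lower in it than in all 23 other libraries. Since 1 model was fitted to all libraries, it weighs on the spread used in each test, and counts are given with all 24 libraries and again without it. TP63 rose from a mean of 2.93 CPM to 655 CPM at day 6 in the TAp63 line and from 4.35 to 926 in the ΔNp63 line. Neuroendocrine markers were at low levels in part, with medians of 0.380 CPM for CHGA, 0.316 for INSM1 and 3.75 for SYP, and the tuft cell factor POU2F3 had a median of 171 CPM.

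After 3 days of ΔNp63 the summed mRNA of the replication genes lay below that of day 0. The summed level of the 42 genes was 5549 ± 477 CPM (SD, n = 3) at day 0 of the ΔNp63 line, 5574 ± 420 at day 1, 4457 ± 491 at day 3 and 5107 ± 253 at day 6. At day 3 its highest library (4998 CPM) stood below the lowest of day 0 (5087 CPM). The day 6 range of 4836 to 5338 CPM overlapped both. The day 1 mean includes the low-total library, replicate 3, at 6052 CPM, while replicates 1 and 2 of that day held 5405 and 5265. In the TAp63 line the sum was 5447 ± 380 CPM at day 0, 5230 ± 312 at day 1, 5145 ± 738 at day 3 and 4911 ± 506 at day 6. Its ranges overlapped between all days, from 5033 to 5780 CPM at day 0 and from 4424 to 5435 at day 6.

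With all 24 libraries edgeR called 9 of the 42 genes lower at ΔNp63 day 3 (21.4%; adjusted p under 0.05 over all genes, replicate number as a block), against 2.69% of all tested genes called lower. None was called higher, against 4.21% of all tested genes. The 9 were MCM2, MCM4, MCM7, RFC2, RFC3, RFC5, LIG1, RRM1 and CHAF1A. In the fit without the low-total library 32 of 42 fell (76.2%), against 11.3% of all genes. The median log2 change of the members was -0.29 in both fits, and that of all genes was -0.01. An unadjusted p under 0.05 with a lower level was reached by 27 members with all libraries, and by 1504 of all 15642 genes. These calls rest on the block: without the replicate block edgeR called 0 of 42 with all libraries and 4 without the low-total library. Leaving out a single library of the compared groups left 2 calls without day 0 replicate 1, day 0 replicate 2, day 3 replicate 2 or day 3 replicate 3. It left 4 without day 0 replicate 3 and 5 without day 3 replicate 1. MCM2 and MCM7 were called in each of these 6 fits.

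**Figure D1:**
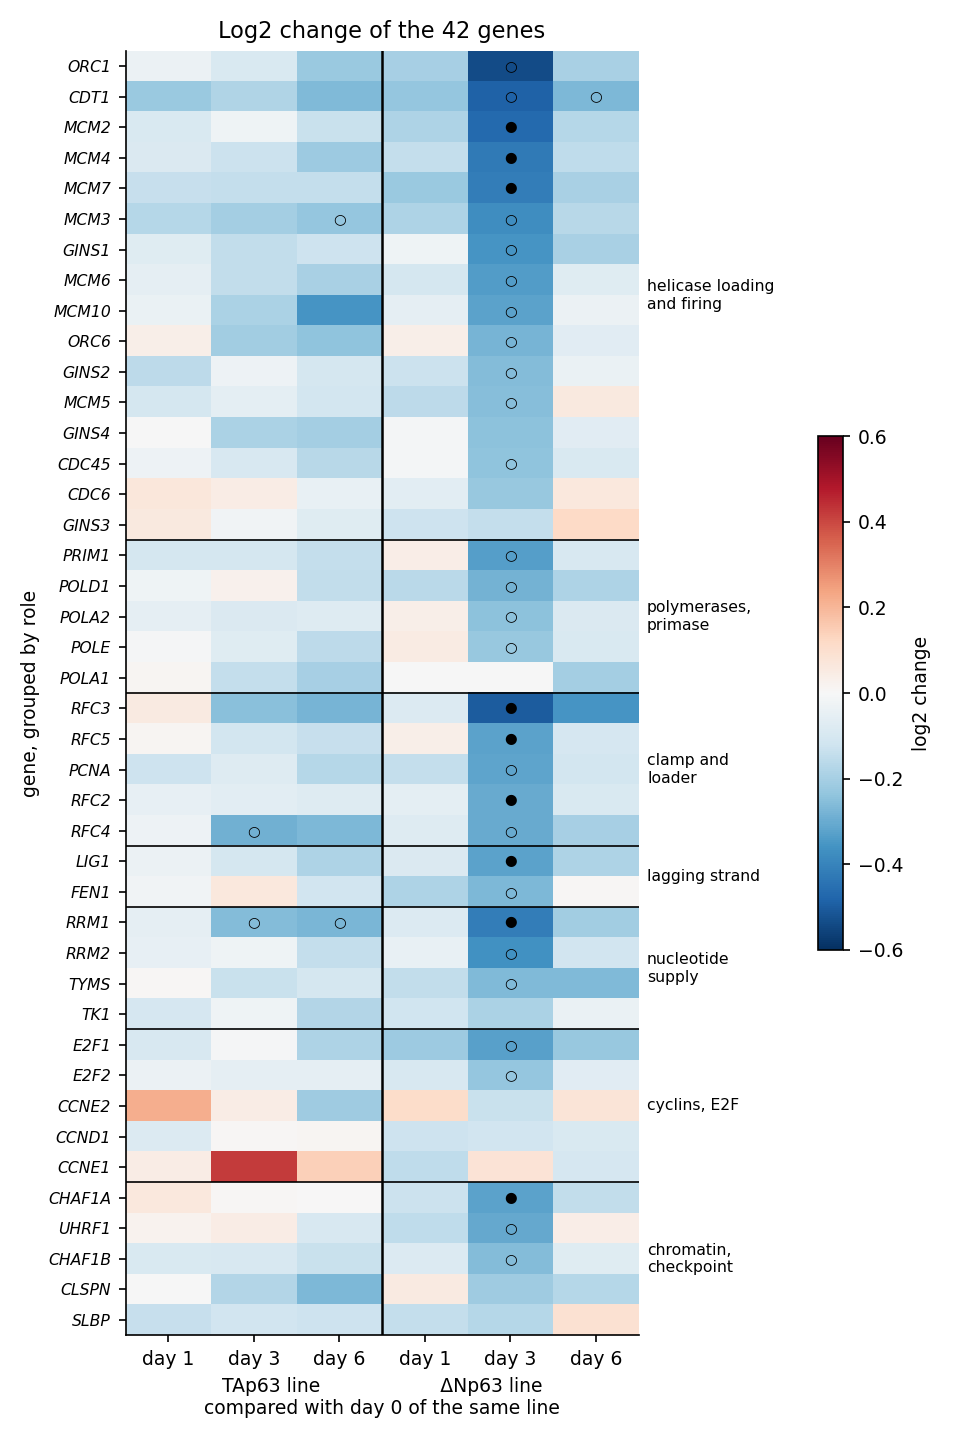
Log2 change of each of the 42 genes against day 0 of its own line (colour, without ΔNp63 day 1 replicate 3), with genes grouped by role in rows and days of each line in columns. A filled dot marks a gene called with all 24 libraries and an open dot one called only without that library; the ΔNp63 day 3 column holds 9 filled dots and 32 dots in all.

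The fall at ΔNp63 day 3 was small in each gene but ran through the replicate numbers. Compared within a replicate number, 37 of 42 genes were lower at day 3 than at day 0 in 3 of 3, against 28% of all genes. GINS3, GINS4, POLA1, CCNE1 and CLSPN were the exceptions. The medians within replicates 1, 2 and 3 were -0.24, -0.29 and -0.32 on the log2 scale. For 18 genes all 3 day 3 libraries lay below all 3 day 0 libraries, against 10.4% of all genes. Markers of other cell states moved over the same days. The summed level of 6 tuft cell markers had medians of 708 CPM at day 0, 498 at day 3 and 555 at day 6, with no overlap between days 0 and 3 (703 to 731 and 433 to 504 CPM). That of 4 basal squamous markers had medians of 37.0, 116 and 171 CPM, with ranges of 30.6 to 39.9 at day 0 and 110.3 to 137 at day 3, while KRT14 among them stayed at or below 0.257 CPM in every library. Over all libraries SOX9 (295 CPM) and POU2F3 (171) had the highest medians of the 6 tuft markers, and TRPM5 (1.43) the lowest. In the ΔNp63 line the sums of 7 neuroendocrine markers overlapped between days 0 and 3. They ranged from 112 to 139 CPM at day 0, from 127 to 136 at day 3 and from 145 to 164 at day 6. In the TAp63 line the tuft sum fell too (734 to 777 CPM at day 0 and 598 to 665 at day 3). Its basal squamous sums overlapped, with 31.0 to 45.0 CPM at day 0 and 41.2 to 49.1 at day 3. At ΔNp63 day 1, the low-total library included, tuft sums were 277 to 501 CPM and basal squamous sums 7.98 to 57.1. The part of these markers in the change of the replication genes was not tested.

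**Figure D2:**
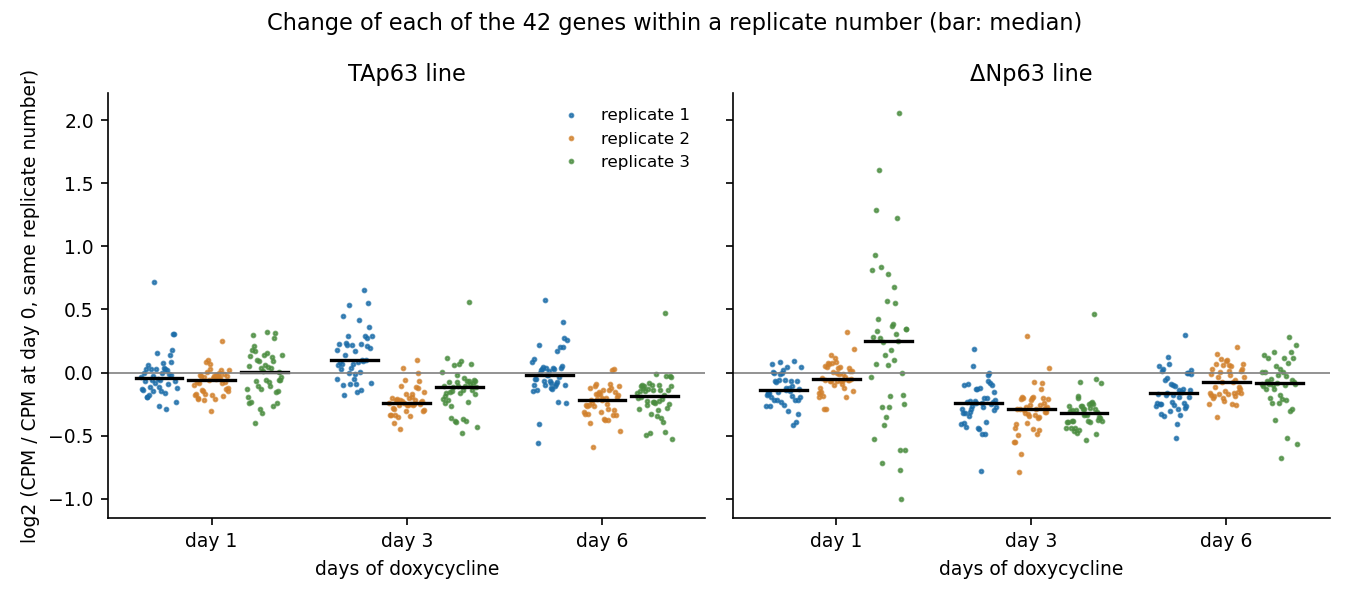
Log2 ratio of CPM to day 0 for each of the 42 genes (points) within replicate numbers 1, 2 and 3 (colours), by day and line, with bars at the medians. At ΔNp63 day 3 the 3 medians lie between -0.24 and -0.32, while at TAp63 day 3 the median of replicate 1 is 0.10 and those of replicates 2 and 3 are -0.24 and -0.11.

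The helicase and its loaders formed the largest group, with 16 genes. At ΔNp63 day 3 all 16 had a log2 change below 0, with a median of -0.33. MCM2, MCM4 and MCM7 were called with all libraries and 13 of the 16 without the low-total library.

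MCM2, a subunit of the helicase (hg38, chromosome 3, 127598411 to 127622435), stood at 354, 257 and 206 CPM in replicates 1, 2 and 3 of ΔNp63 day 0. At day 3 the same replicate numbers held 266, 175 and 153 CPM, and at day 6 they held 295, 216 and 207. The groups overlapped, since replicate 1 was the highest of each group, but each number was lower at day 3. The log2 change at day 3 was -0.47 ± 0.0868 (SE; edgeR adjusted p = 0.00265).

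MCM7, another helicase subunit (chromosome 7, 100092728 to 100101397), went from 747, 696 and 593 CPM at day 0 to 599, 495 and 438 at day 3 and 628, 605 and 543 at day 6. Its day 3 libraries overlapped those of day 0 only through replicate 1, and the log2 change was -0.41 ± 0.0819 (edgeR adjusted p = 0.00407). The microRNA genes MIR106B, MIR93 and MIR25 lie within MCM7, which makes its count uncertain by the few fragments that touch them.

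MCM4 (chromosome 8, 47960941 to 47978159), also of the helicase, had day 0 values of 363, 380.5 and 352 CPM. All 3 day 3 values, 290.1, 259 and 268 CPM, lay below them, and day 6 values of 323, 335 and 327 CPM lay between both groups. Its log2 change at day 3 was -0.42 ± 0.103 (edgeR adjusted p = 0.0180), a fall.

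CDT1, which brings the helicase to origins and is destroyed in S phase (chromosome 16, 88803789 to 88809258), was at 108, 104 and 76.6 CPM at day 0, 84.7, 66.7 and 55.6 at day 3 and 84.6, 81.8 and 72.0 at day 6. ΔNp63 day 1 replicate 3 held 233 CPM of CDT1, where the other 2 libraries of that day held 92.8 and 85.5. With that library the day 3 change was -0.49 ± 0.270 (edgeR adjusted p = 0.327). Without it CDT1 fell by 0.49 ± 0.0817 at day 3 (adjusted p = 8.82e-05) and by 0.27 ± 0.0831 at day 6 (adjusted p = 0.0270).

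**Figure D3:**
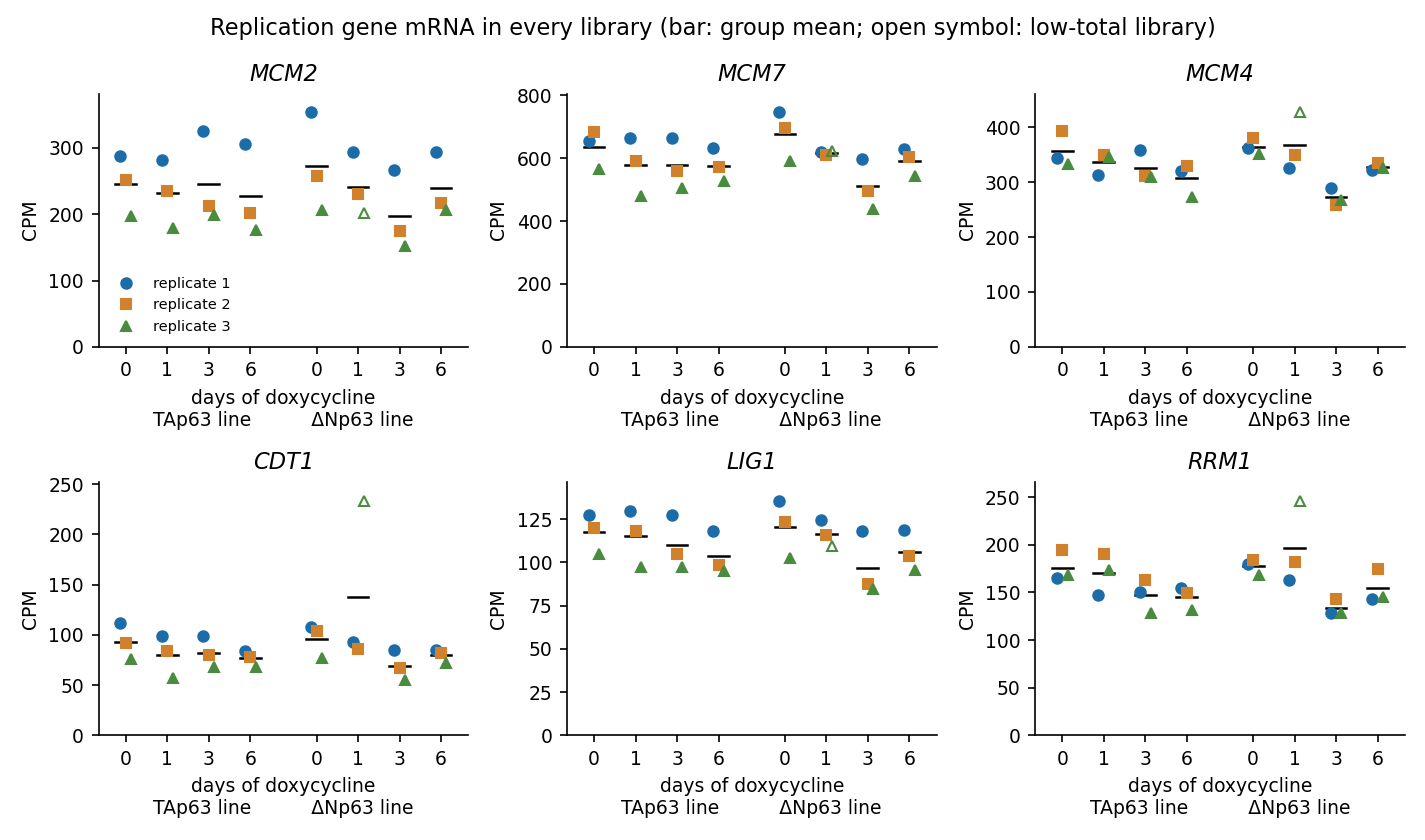
CPM of MCM2, MCM7, MCM4, CDT1, LIG1 and RRM1 in each library by days of doxycycline and line, with symbols for replicate numbers, bars at group means and an open symbol for ΔNp63 day 1 replicate 3. In the ΔNp63 line the day 3 mean is the lowest of the 4 days for all 6 genes, as for MCM7 with a mean of 510.3 CPM at day 3 and 678 at day 0.

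MCM3 and ORC1 showed the same dependence on that library. ORC1, the largest subunit of the origin recognition complex (chromosome 1, 52372829 to 52404471), was at 41.2, 45.5 and 37.1 CPM at day 0 and 30.5, 26.3 and 28.4 at day 3, with no overlap. Its day 6 values were 32.8, 40.1 and 35.5 CPM, and the day 3 change was -0.54 ± 0.214 with all libraries (edgeR adjusted p = 0.145) and -0.54 ± 0.101 without the low-total library (adjusted p = 0.000331). MCM3 (chromosome 6, 52264015 to 52284742) went from 261, 244 and 212 CPM to 214, 179 and 162 at day 3 and 221, 218 and 199 at day 6. The groups at days 0 and 3 touched only where replicate 1 of day 3 exceeded replicate 3 of day 0. Without the low-total library MCM3 fell by 0.37 ± 0.0646 at day 3 (edgeR adjusted p = 0.000132, against 0.174 with it). MCM6 (chromosome 2, 135839626 to 135876443) went from 141, 127 and 119 CPM at day 0 to 107, 104 and 95.8 at day 3, with no overlap, and to 119, 129 and 119 at day 6. It too fell without the low-total library (log2 change -0.34 ± 0.0787, edgeR adjusted p = 0.00274), and with it the adjusted p was 0.266.

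Of the other helicase genes, MCM5 (-0.25), MCM10 (-0.32), CDC45 (-0.24), ORC6 (-0.28), GINS1 (-0.35) and GINS2 (-0.26) fell in the edgeR fit without the low-total library. CDC6, which loads the helicase together with CDT1, had a log2 change of -0.23 (edgeR adjusted p = 0.0854 there). GINS3 and GINS4, subunits of the helicase activator, had changes of -0.14 and -0.24 and adjusted p-values of 0.236 and 0.319. A non-coding gene, LOC102723729, overlaps 68% of the GINS4 span on the opposite strand, and fragments there were counted for neither gene, so GINS4 was counted from the rest of its span.

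The clamp and its loader, which hold the polymerases on DNA, were called in 3 of 5 genes with all libraries and 5 of 5 without the low-total library. RFC3, a subunit of the loader (chromosome 13, 33818069 to 33966558), went from 97.1, 85.5 and 97.6 CPM at ΔNp63 day 0 to 56.4, 74.7 and 67.5 at day 3 and 67.6, 89.1 and 61.0 at day 6. Days 0 and 3 did not overlap, and the log2 change was -0.50 ± 0.146 (edgeR adjusted p = 0.0458). RFC5, a further subunit (chromosome 12, 118016661 to 118032237), stood at 75.8, 85.2 and 84.2 CPM at day 0. Day 3 values of 64.1, 67.3 and 64.5 CPM lay below all of these, and at day 6 replicate 1 was at 62.2 while replicates 2 and 3 were at 83.8 and 84.7. RFC5 fell by 0.32 ± 0.0953 at day 3 (edgeR adjusted p = 0.0493). RFC2 fell by 0.30 with all libraries, and RFC4 (-0.30) and PCNA, the clamp itself (-0.32), fell without the low-total library. PCNA-AS1 overlaps 3.29% of PCNA on the opposite strand.

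The polymerase genes were less uniform. None of the 5 was called with all libraries, and edgeR called POLA2 (-0.25), POLD1 (-0.28), POLE (-0.23) and PRIM1 (-0.33) lower without the low-total library. POLA1, the catalytic subunit of the polymerase that starts each new strand, had 118, 88.9 and 103 CPM at ΔNp63 day 0 and 101, 109 and 98.1 at day 3, with full overlap. LIG1, the ligase that joins Okazaki fragments (chromosome 19, 48115445 to 48170603), went from 136, 123 and 103 CPM to 118, 87.6 and 84.5 at day 3 and 119, 104 and 95.6 at day 6. Replicate 1 of day 3 lay within the range of day 0, and LIG1 fell by 0.32 ± 0.0744 (edgeR adjusted p = 0.0128). FEN1, the nuclease that trims those fragments, fell without the low-total library (-0.27).

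Among the genes of nucleotide supply, RRM1, the large subunit of ribonucleotide reductase (chromosome 11, 4094685 to 4138932), was at 179.7, 184 and 168 CPM at ΔNp63 day 0 and 128, 143 and 128 at day 3. The groups did not overlap, and day 6 values of 143, 175 and 145 CPM reached from the day 3 to the day 0 levels. RRM1 fell by 0.41 ± 0.121 at day 3 (edgeR adjusted p = 0.0468). Its partner subunit RRM2 (-0.37) and thymidylate synthase TYMS (-0.26) fell without the low-total library, and thymidine kinase TK1 (-0.19) was not called. TYMS values are uncertain, since ENOSF1 overlaps 20.5% of its span on the opposite strand.

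The 5 cyclin and E2F genes, which govern entry into S phase, had a median log2 change of -0.13 at ΔNp63 day 3. The medians of the other roles lay between -0.24 and -0.33, and the difference was not tested. E2F1, the activator of S phase genes (-0.33), and E2F2 (-0.23) fell without the low-total library. LOC101928163 overlaps 26.2% of E2F2 on the opposite strand, so its values are uncertain. CCND1, a D cyclin (-0.11), and the E cyclins CCNE2 (-0.14) and CCNE1 (0.08) were not called. INTS8 overlaps 10.1% of CCNE2 on the opposite strand.

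CCNE1 (chromosome 19, 29811991 to 29824312) had the highest day 3 change of all members in both lines. In the TAp63 line it was at 9.24, 9.67 and 7.80 CPM at day 0, 14.6, 10.3 and 11.6 at day 3 and 9, 9.82 and 10.8 at day 6. All 3 day 3 libraries lay above day 0, yet the log2 change was 0.44 ± 0.291 (edgeR adjusted p = 0.772), and 0.42 ± 0.145 without the low-total library (adjusted p = 0.0991). In the ΔNp63 line CCNE1 stood at 9.96, 10.1 and 6.63 CPM at day 0 and 9.84, 9.15 and 9.16 at day 3, with full overlap.

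Of the chromatin and checkpoint genes, CHAF1A, the large subunit of the histone chaperone that follows the fork (chromosome 19, 4402640 to 4443397), went from 211, 172 and 172 CPM to 172, 139 and 135 at ΔNp63 day 3 and 185, 154 and 163 at day 6. Each number was lower at day 3, with replicate 1 of day 3 level with the lower day 0 libraries, and CHAF1A fell by 0.32 ± 0.0891 (edgeR adjusted p = 0.0368). CHAF1B (-0.26) and UHRF1, which guides maintenance of DNA methylation (-0.31), fell without the low-total library. SLBP, which binds the stem-loop of histone mRNAs (-0.17), and CLSPN, an adaptor of the replication checkpoint (-0.21), were not called.

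At ΔNp63 day 6 the median log2 change from day 0 was -0.10, and edgeR called 0 of 42 genes with all libraries (1.34% of all genes lower; 3 members at an unadjusted p under 0.05; DESeq2 0, voom with library weights 10). Of all 15642 genes 1010 were lower at that unadjusted p, and voom called 3002 in either direction. By edgeR CDT1 alone was called without the low-total library, and 5.94% of all genes were, so the share of members lies below the background. Without the replicate block as well, 0 were called. Day 6 was compared with day 3 directly, in a comparison chosen after the values were seen that shares its day 3 libraries with the fall. Within replicate numbers 30 genes were higher at day 6 than at day 3 in 3 of 3, against 21.7% of all genes, and only POLA1 and CCNE1 were lower in 3 of 3. The median change was 0.20, with 0 of 42 called higher by edgeR with all libraries (0.0511% of all genes; 12 members at an unadjusted p under 0.05; DESeq2 0, voom 4). Of all genes 530 were higher at that unadjusted p, and voom called 356 in either direction.

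Without the low-total library edgeR called 2 members higher at day 6 than at day 3, against 0.640% of all genes, and 0 when the replicate block was dropped too. MCM5, a helicase subunit, went from 379, 264 and 229 CPM at day 3 to 421, 348 and 304 at day 6. The groups overlapped, and each number was higher at day 6 (log2 change 0.31 ± 0.0790, adjusted p = 0.0390). SLBP went from 97.6, 106 and 97.8 CPM to 113, 129 and 120.2, with no overlap (0.26 ± 0.0672, adjusted p = 0.0441). At the other end, RFC3 had the lowest day 6 change of the members in this line (-0.36 ± 0.147, edgeR adjusted p = 0.220). GINS3 (chromosome 16, 58392471 to 58406147) had the highest, 0.13 ± 0.0983 (adjusted p = 0.650), with 20.2, 28.8 and 24.7 CPM at day 0 and 22, 31 and 27.6 at day 6.

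At ΔNp63 day 1 the result turned on replicate 3. With it the median log2 change was 0.01, and edgeR called 0 of 42 genes lower with all libraries (0.0384% of all genes; 2 members at an unadjusted p under 0.05; DESeq2 0, voom 1) and 0 without the low-total library (0.298%; 5 members at an unadjusted p under 0.05). Of all genes 1064 were lower at that unadjusted p with all libraries and 895 without the low-total library. Voom called 701 of all genes in either direction. That day holds only 2 libraries without replicate 3, and the median was then -0.10, with 35 of 42 genes below 0, the same count as at day 6.

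In the TAp63 line few members were called at any day. At day 1 the median log2 change was -0.03 and edgeR called 0 of 42 genes lower with all libraries (0.00639% of all genes; 0 members at an unadjusted p under 0.05; DESeq2 0, voom 0) and 0 without the low-total library (0.348%; 4 at an unadjusted p under 0.05). Of all genes 320 were lower at that unadjusted p with all libraries and 860 without the low-total library. At day 3 the median was -0.09. Replicate 1 stood apart from the other two, with a median within-number change of 0.10 against -0.24 and -0.11. With all libraries edgeR called 0 (0.109% of all genes; 1 member at an unadjusted p under 0.05; DESeq2 0, voom 3), and without the low-total library it called 2, against 1.37% of all genes. These were RRM1 (-0.26 ± 0.0763, adjusted p = 0.0491) and RFC4 (-0.29 ± 0.0844, adjusted p = 0.0456). Neither was called in that library set without the replicate block. Of all genes 528 were lower at day 3 at an unadjusted p under 0.05 with all libraries, and voom called 1110 in either direction.

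At TAp63 day 6 the median was -0.14 and 39 of 42 genes had a log2 change below 0. Within replicate numbers 22 genes were lower in 3 of 3, against 19.2% of all genes. With all libraries edgeR called 0 (0.0384% of all genes; 6 members at an unadjusted p under 0.05; DESeq2 0, voom 5). Of all genes 352 were lower at that unadjusted p, and voom called 1005 in either direction. In the fit without the low-total library edgeR called MCM3 and RRM1, against 0.646% of all genes, and 0 when the replicate block was dropped too. MCM3 went from 241, 245 and 206 CPM at day 0 to 217, 195 and 179 at day 6, with replicate 1 of day 6 inside the day 0 range (-0.23 ± 0.0650, adjusted p = 0.0442). RRM1 went from 165, 195 and 169 CPM to 155, 149.7 and 131, with no overlap (-0.28 ± 0.0760, adjusted p = 0.0380). MCM10 (chromosome 10, 13161558 to 13211110), a scaffold of helicase activation, had the lowest change, -0.35 ± 0.138 (edgeR adjusted p = 0.491). Its values were 83.2, 91.2 and 77.2 CPM at day 0 and 83.0, 60.7 and 54.8 at day 6, so replicate 1 hardly differed and replicates 2 and 3 were lower.

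**Figure D4:**
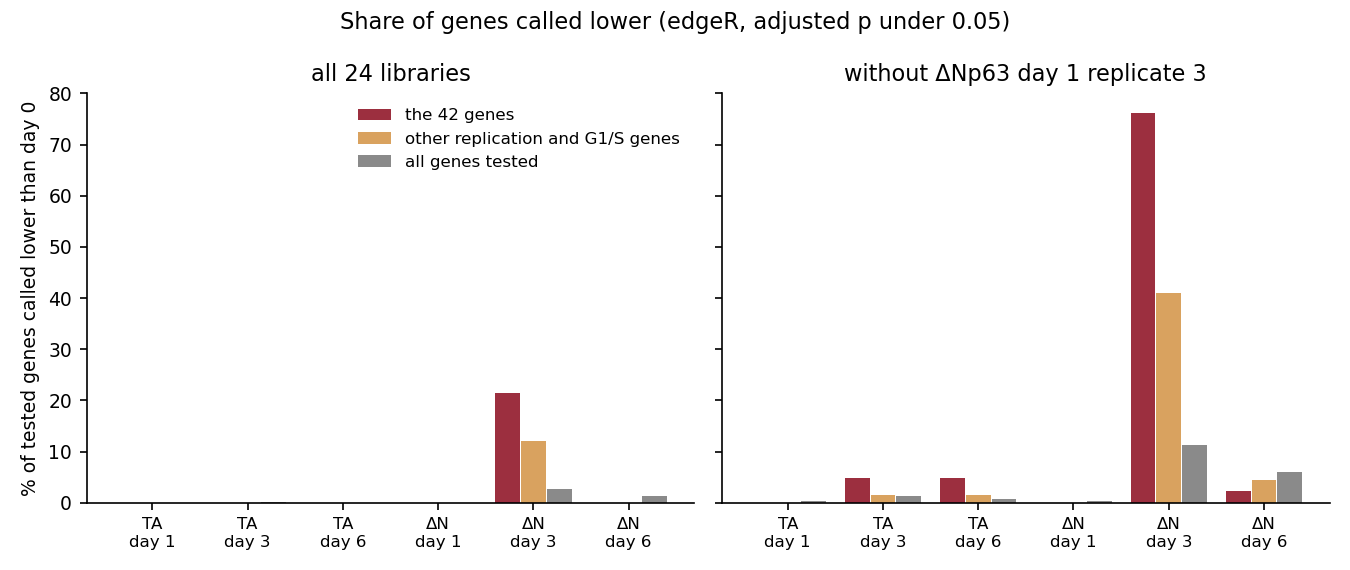
Share of genes called lower than day 0 by edgeR (percent of tested genes) for the 42 genes, a list of other replication and G1/S genes and all genes, by line and day, with all 24 libraries (left) and without ΔNp63 day 1 replicate 3 (right). At ΔNp63 day 3 the share of the 42 genes is 21.4% on the left and 76.2% on the right.

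The lines themselves were close before induction. At day 0 the median log2 difference between them (TAp63 minus ΔNp63) was -0.01, and edgeR called 0 of 42 in either direction with all libraries (0.0384% of all genes; 0 members at an unadjusted p under 0.05; DESeq2 0, voom 0) and 0 without the low-total library (0.171%; 1 at an unadjusted p under 0.05). At that unadjusted p 130 of all genes were lower and 150 higher with all libraries, and 425 and 507 without the low-total library. The day 6 changes differed between the lines by a median of -0.06, with 0 called with all libraries (0.166% of all genes; 0 members at an unadjusted p under 0.05; DESeq2 0, voom 0) and 0 without the low-total library (1.87%; 2 at an unadjusted p under 0.05). For all genes the counts below and above 0 at that unadjusted p were 395 and 340 with all libraries. They were 885 and 852 without the low-total library.

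The day 3 changes were compared between the lines after the values had been seen. The TAp63 minus ΔNp63 difference had a median of 0.21 and was above 0 for 41 of 42 genes, and edgeR called 0 with all libraries (0.0639% of all genes; 5 members at an unadjusted p under 0.05). Of all genes 345 lay above 0 at that unadjusted p. DESeq2 and voom called 1 member each, and 64 and 292 of all genes in either direction. Without the low-total library edgeR called MCM2, against 0.944% of all genes. MCM2 was at 288, 252 and 197 CPM at TAp63 day 0 and 325, 212 and 198 at day 3, so that replicate 1 was higher, replicate 2 lower and replicate 3 level. The difference of its day 3 changes was 0.44 ± 0.110 (adjusted p = 0.0483; 0.421 with all libraries). With edgeR the difference between the lines was thus called for MCM2 alone among the 42, and neither with all 24 libraries nor without the replicate block.

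A list of 70 other genes of replication and of the G1/S transition, 66 of them tested, moved the same way at ΔNp63 day 3 with a smaller median, -0.19. CDKN2A, CDKN2B, POLD4 and ASF1A were not tested because of low counts. With all libraries 8 of 66 fell (12.1%) and 0 rose, against 2.69% and 4.21% of all genes. Those that fell were the cyclin CCNA2, its kinase CDK2, RNASEH2A, DNMT1, MCMBP, TICRR, E2F7 and TIMELESS. Without the low-total library 27 fell (40.9%) and 1 rose (1.52%), against 11.3% and 12.2% of all genes. The gene that rose was CDKN1A, the inhibitor p21, with 8.56, 7.21 and 4.66 CPM at ΔNp63 day 0 and 9.78, 12.2 and 9.53 at day 3. Its libraries did not overlap, and the log2 change was 0.65 ± 0.141 (edgeR adjusted p = 0.00145; 0.137 with all libraries). The non-coding gene DINOL overlaps 8.75% of CDKN1A, so its value is uncertain. At TAp63 day 3 CDKN1A rose as well in that fit (0.69 ± 0.152, edgeR adjusted p = 0.00557), from 6.78, 6.14 and 5.41 CPM at day 0 to 12.6, 9.48 and 7.83.

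At day 6 edgeR called 0 of the 66 in either line with all libraries, with 6 in the ΔNp63 line and 4 in the TAp63 line at an unadjusted p under 0.05. At that unadjusted p 1010 of all genes were lower and 1388 higher in the ΔNp63 line, and 352 and 786 in the TAp63 line. Without the low-total library 3 of 66 were lower (4.55%) and 1 higher (1.52%) in the ΔNp63 line, below the 5.94% and 8.14% of all genes. CDKN1A was the higher one (0.58 ± 0.15, adjusted p = 0.00879). CCND2, a D cyclin (-0.31 ± 0.0703, adjusted p = 0.00253), CDKN1B, the inhibitor p27 (-0.28 ± 0.0675, adjusted p = 0.00456), and TIMELESS, of the fork protection complex (-0.24 ± 0.0670, adjusted p = 0.0155), were lower there. CCND2-AS1 overlaps 7.67% of CCND2. In the TAp63 line 1 of 66 was called lower (1.52%, against 0.646% of all genes), namely CDCA7, a partner of the chromatin remodeler HELLS (-0.37 ± 0.0897, adjusted p = 0.0167).

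Members with and without an E2F-type sequence had close medians at ΔNp63 day 3. In the fit without the low-total library the 20 genes with one had a median of -0.31 and 16 were called. The 17 genes with a window and no such sequence had a median of -0.30 and 14 were called. POLA1 is among the former and ORC1 among the latter, and the medians were compared as a description with no test.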

How the data were processed

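Messenger RNA was measured in 24 libraries. TRIzol RNA went into NEBNext Ultra libraries, per the labels' protocols. HISAT2 2.1.0, featureCounts 1.6.1, DESeq2 and the hg38 build are named in the submitters' processing notes. The deposited values are raw counts per gene, made with featureCounts 2.0.0 per the file headers, whose command assigned read pairs to transcript spans with introns and without strand. Counts therefore hold unspliced RNA, and fragments over 2 genes were left out.

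The test was the quasi-likelihood test of edgeR 4.0.16 in R 4.3.3 after TMM scaling and filterByExpr, with a mean per group and the replicate number as a block, all libraries in 1 model with 14 residual degrees of freedom, and Benjamini-Hochberg adjustment over all genes. CPM use TMM-adjusted library sizes. SE is the absolute log2 change over the square root of F. Limma 3.58.1 (voom) and DESeq2 1.42.0 were alternatives, with others named under the processing. The fit was tested on simulated data. Same-numbered libraries deviated together without ΔNp63 day 1 (lowest correlation 0.160 over 63 pairs). With it not all pairs did (lowest -0.286 over 84 pairs). The lowest correlations were then -0.058, 0.160 and -0.286 for replicates 1, 2 and 3. The pairing comes from replicate numbers in the titles. All replicates differed by more than sampling noise (lowest chi-square per degree of freedom 5.05).

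The members and lists were chosen with earlier results of these data known. Values in every library are given for members called in any comparison with day 0 (at most 12, by lowest adjusted p) and for the highest and lowest day 6 change in each line; genes of the other list are given if called at day 6. MCM5, SLBP, POLA1 and the day 3 values of CDKN1A were added after their values were seen.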

Additional observations from a re-analysis of the deposited data

Results flagged for a closer look

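The response of MCM2 at day 3 was called different between the lines in the edgeR fit without ΔNp63 day 1 replicate 3. This comparison was chosen after the values had been seen. Without ΔNp63 day 1 replicate 3 the log2 change was -0.47 in the ΔNp63 line and -0.03 in the TAp63 line, a difference of 0.44 ± 0.110 in an interaction test (edgeR adjusted p = 0.0483). With all 24 libraries the difference was again 0.44, with an adjusted p of 0.421. Without the replicate block the difference was not called in either library set. MCM2 was lower at day 3 in 3 of 3 replicate numbers of the ΔNp63 line, and in the TAp63 line it was higher in replicate 1, lower in replicate 2 and level in replicate 3. Replicate 1 of TAp63 day 3 held 325 CPM, the highest value of MCM2 in that line. MCM2 was also higher in replicate 1 than in replicate 3 in the 7 groups other than ΔNp63 day 1, and its part in the difference was not tested.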

How the results depend on the processing

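At ΔNp63 day 3, where 9 members were called, the count was 0 with no replicate block, 4 with no replicate block and without ΔNp63 day 1 replicate 3, 18 with DESeq2, 4 with no filter on low counts, 4 with library totals in place of TMM, 33 with voom and library weights and 32 with only the compared groups in the model. In the same order these fits called 344, 1000, 2038, 800, 1095, 4361 and 3488 of all genes in either direction. The main fit called 1078. Leaving out a single library gave 2 to 32 members and 405 to 3712 of all genes. The median log2 change of the members ran from -0.32 to -0.23 over all 15 fits. For the comparisons with 0 members called, voom gave 3 at TAp63 day 3, 5 at TAp63 day 6, 1 at ΔNp63 day 1, 10 at ΔNp63 day 6, 1 for the line difference at day 3 and 4 for ΔNp63 day 6 against day 3. In the same order voom called 1110, 1005, 701, 3002, 292 and 356 of all genes in either direction. Only the compared groups gave 1, 2, 3, 1 and 7 at TAp63 day 3, TAp63 day 6, ΔNp63 day 6, the line difference at day 3 and ΔNp63 day 6 against day 3, and DESeq2 gave 1 for the line difference at day 3. Over all genes the fits of only the compared groups called 700, 580, 2331, 222 and 708, and DESeq2 called 64. Leaving out a single library gave 0 to 2 at TAp63 day 3, TAp63 day 6 and ΔNp63 day 6 against day 3, and 0 to 1 at ΔNp63 day 1, ΔNp63 day 6 and the line difference at day 3. The cause was not tested. TAp63 day 1, the lines at day 0 and the line difference at day 6 gave 0 in every fit run. With all 24 libraries the replicate block changed no count other than that at ΔNp63 day 3. Without ΔNp63 day 1 replicate 3, dropping the replicate block took the counts of 2 at TAp63 day 3, TAp63 day 6 and ΔNp63 day 6 against day 3, and of 1 at ΔNp63 day 6 and the line difference at day 3, to 0. Of 1245 alternative values of single genes 1154 kept their side of the threshold, 38 passed it newly and 53 lost it. No value called in the main or the alternative fit changed direction. Changes of direction in values called in neither fit were not counted. Depth limits the day 1 values of the ΔNp63 line, where a library had 1530847 counts.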

Other observations

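Replicate number moved with the level of many members. In the 7 groups other than ΔNp63 day 1, replicate 1 was above replicate 3 in every group for 13 members: MCM2, MCM3, MCM5, MCM7, CDT1, CDC45, GINS2, POLD1, POLE, LIG1, TK1, E2F1 and CHAF1B. It was below replicate 3 in every group for 5: ORC6, GINS1, GINS3, GINS4 and E2F2. The same counts were not made over all genes, so whether this is particular to the members was not tested. Over all tested genes same-numbered libraries of the 8 groups had median correlations of 0.61, 0.30 and 0.43 for replicates 1, 2 and 3.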
